A study of Mus musculus with 10 samples.

Results

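The RNA levels of 48 genes of the DNA replication machinery were followed through the first wave of mouse spermatogenesis, in whole testis and in somatic tissues. The genes were taken by name from a list that covers the origin recognition complex, the loading factors, the MCM helicase, the polymerases, the sliding clamp, the single-strand binding protein, ligation and nucleotide supply. All 48 were on the arrays, among 18193 genes in all. Of these, 44 were read from the first of 2 array designs and Gins2, Gins3, Mcm8 and Tyms from the second.

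Replication begins at origins, where the origin recognition complex, with Cdc6 and Cdt1, loads the ring-shaped MCM2-7 helicase onto DNA. The kinase Cdc7 with its partner Dbf4, together with Cdc45 and the GINS proteins, turns that ring into the active helicase, after which primase, the polymerases and the clamp copy both strands. In the male germ line, spermatogonia divide by mitosis, the last replication round precedes leptotene, and both meiotic divisions follow with no further round.

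The 5 groups were of C57BL/6 males. The Percoll fractions, layers of dissociated testis cells separated by density, were fraction 2 at day 8, enriched in spermatogonia, fraction 5 at day 12, enriched in leptotene and zygotene spermatocytes, and fraction 8 at day 15, enriched in pachytene spermatocytes. Whole testis at day 15 and a mixture of 11 somatic tissues at day 15 (skin, spleen, muscle, kidney, colon, intestine, stomach, liver, lung, heart and brain) completed the set. Each group had 2 samples, 1 on each array design, so a gene carried by 1 design was measured once per group. Stage and age changed together, and fractions were enriched rather than pure. The sources used here state neither how many mice were pooled nor whether samples 1 and 2 of a group were prepared separately.

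Values are the deposited intensities after scaling within a design, called signals below. A signal under the floor, 86.9 on the first design and 45.2 on the second, was treated as not measurable, and a difference against a signal at the floor is written as a bound. A gene was called higher or lower at a difference of 2-fold, which is 1 on the log2 scale. The error of a log2 difference, from 100 probe sets (groups of short probes for 1 transcript) carried by both designs, was 0.179 for leptotene/zygotene against spermatogonia and 0.208 for pachytene against leptotene/zygotene, with 95% limits of 0.351 and 0.407. This error comes from the same probes on both designs, so it leaves out differences between the probe sets of 1 gene. Those can be larger: in pachytene against leptotene/zygotene cells 2 Prim1 probe sets gave -2.16 and -3.94. The error holds differences between preparations only if samples 1 and 2 were prepared separately. Signals depend on the probes, so no gene's level is set against another's.

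The labels were checked against marker genes. Pachytene markers were higher in pachytene cells than in leptotene/zygotene cells in 9 of 9 cases, and leptotene/zygotene markers were higher in that fraction than in spermatogonia in 7 of 8. Spermatogonial markers did not mark the day 8 fraction: of 8, 2 were higher in leptotene/zygotene cells than in spermatogonia and 0 lower, with summed signals, over the 6 on the first design, of 10683 in leptotene/zygotene cells and 5779 in spermatogonia. Sertoli cell markers were well above the floor in the younger fractions: their summed signal was 37579 in spermatogonia, 32770 in leptotene/zygotene cells, 8785 in pachytene cells, 25060 in whole testis and 4744 in the somatic pool. The whole-testis arrays stood apart in RNA quality, with ratios of 3' to 5' control probes of 5.22 and 6.57 for Actb and 4.33 and 3.75 for Gapdh, against 1.88 to 3.40 and 1.07 to 1.52 on the other 8 arrays.

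In leptotene/zygotene cells, against spermatogonia, the replication genes were nearly all higher, by small amounts. Of 47 measured in this comparison, 46 had a difference above 0, 38 were above the 95% limit of the error and none was below it. In all, 6 were called higher and 0 lower, whereas 3.41% of all 12919 measured genes were called higher and 4.79% lower. The median log2 difference was 0.64 over the replication genes and 0.02 over all genes. The called genes were Cdc6, Rfc4, Gmnn, Mcm2, Rrm2 and Mcm5. Mcm5 was just inside the 2-fold limit, and Orc1 (0.98) and Gins1 (0.98) were just outside it. Markers of other cells changed along with this comparison. Of 8 stromal and peritubular markers 4 fell, with summed signals of 19085 in leptotene/zygotene cells and 37479 in spermatogonia and no marker at the floor in either. Of 4 measured Leydig markers 1 fell and all were lower beyond the 95% limit (summed signals of 4033 in leptotene/zygotene cells and 7694 in spermatogonia), and of 3 measured macrophage and blood markers 2 rose. The part of these cells in the differences was not tested.

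**Figure D1:**
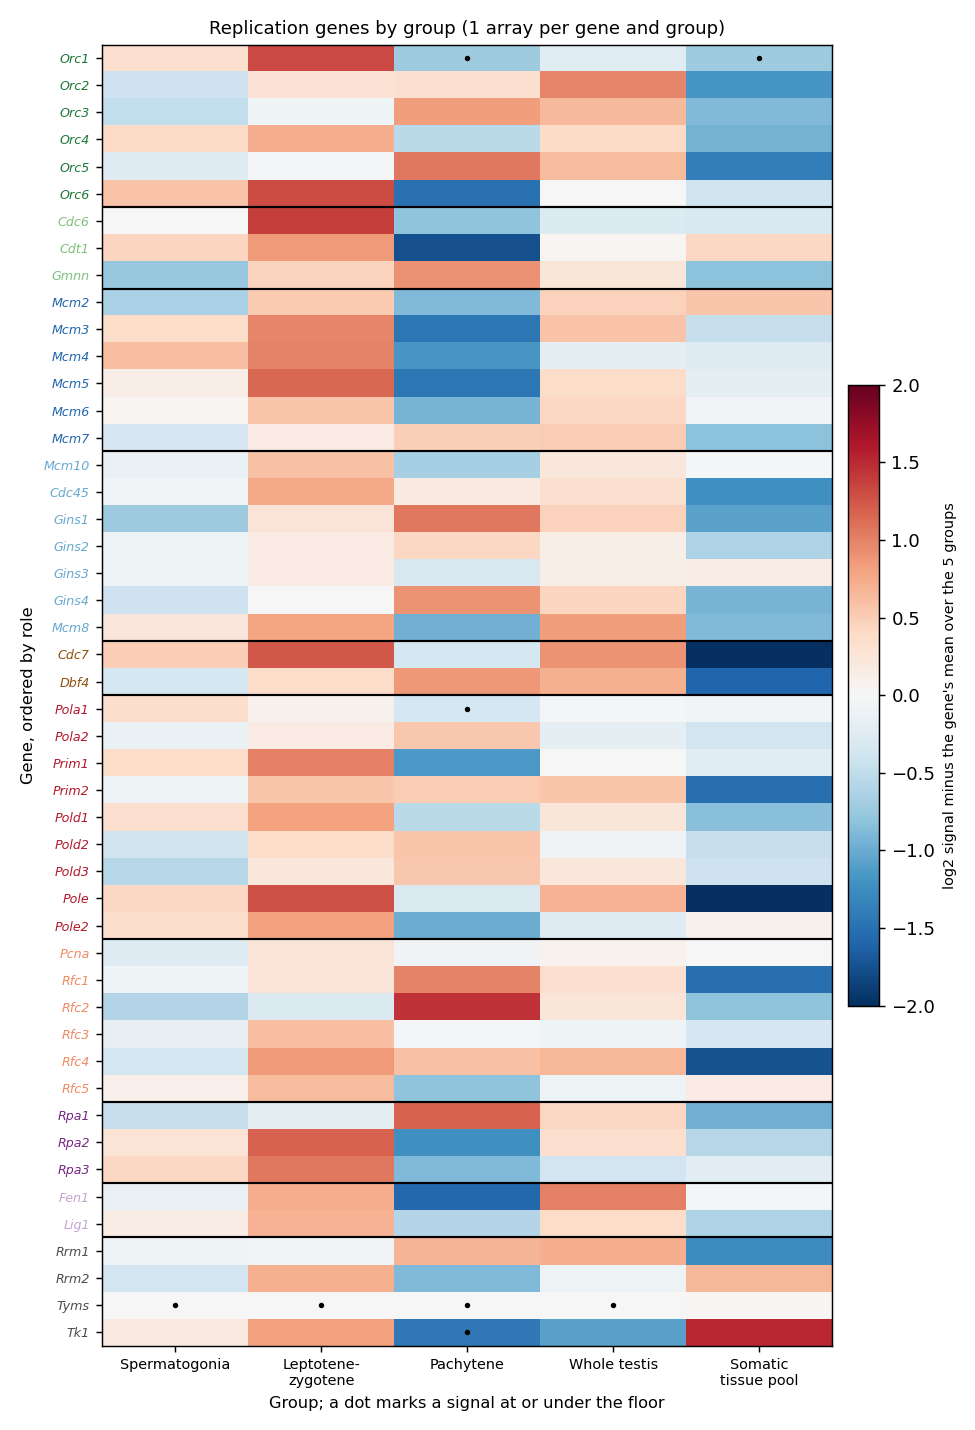
Heat map of the 48 replication genes (rows, by role) in the 5 groups (columns); colour is the log2 signal minus the gene's mean over the groups, with signals under the floor set to it and marked by a dot. The leptotene/zygotene column is red for most genes, while the pachytene column is split between blue (Orc6, Cdt1, Mcm3, Mcm5, Rpa2) and red (Rfc2, Rpa1, Orc5, Gins1).

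In pachytene cells, against leptotene/zygotene cells, the machinery split. Of 47 genes measured, 24 fell at least 2-fold and 3 rose, whereas over all 13523 measured genes 27.7% fell and 18.0% rose. Of these, 11 fell at least 4-fold, against 9.33% of all genes. That count was 13 with the values as deposited, 7 with median scaling, 6 with quantile normalization and 3 with scaling to the shared probe sets. The 4-fold share of all genes under those alternatives is not given, so these counts cannot be set against it. The median log2 difference was -1.25 over the replication genes and -0.22 over all genes. The replication median was the smallest fall among the 24 genes and lay beside a thinly filled range. Only 2 genes were between -1 and -0.5, while 24 were lower and 21 higher than that range. The median therefore moved with the processing, to -0.58 when only plain probe sets were used (41 genes measured), and the counts describe the genes better. Median scaling and scaling to the shared probe sets shifted the median of all genes by 0.30 and 0.36. Under them 20 and 19 replication genes fell and 8 rose, whereas 20.2% and 18.9% of all genes fell and 23.4% and 24.6% rose. Of all called genes 53.7% and 56.6% were higher, against 39.3% here.

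Other cells changed along with this comparison. Between leptotene/zygotene and pachytene cells 10 of 11 Sertoli markers (1 at the floor in pachytene cells), 4 of 4 measured Leydig markers and 7 of 7 measured spermatogonial markers fell at least 2-fold, and of 4 measured macrophage and blood markers 2 rose. In these bulk fractions fewer cells of a type and less RNA per cell cannot be told apart, and the part of these cells in the differences below was not tested. The subunit contrasts within 1 complex below compare genes on the same arrays, except for GINS. Gins2 and Gins3 were read from the second design and Gins1 and Gins4 from the first. Sharing arrays does not separate out the part of other cells.

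**Figure D2:**
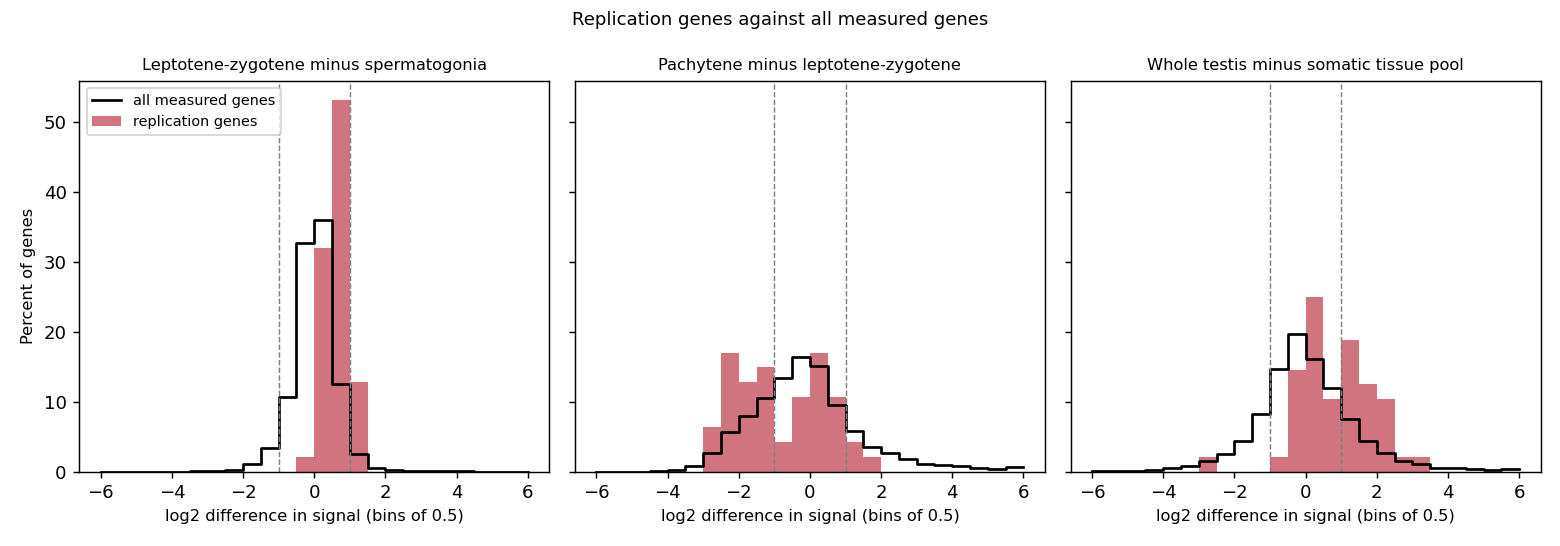
Share of genes (vertical axis, percent) in bins of 0.5 of the log2 difference (horizontal axis), with replication genes as bars, all measured genes as a black line and the 2-fold limits dashed; differences beyond 6 are in the end bins. Replication genes sit to the right of 0 in leptotene/zygotene against spermatogonia, in separate lower and upper parts in pachytene against leptotene/zygotene, and mostly to the right of 0 in whole testis against the somatic pool.

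The origin recognition complex, which marks origins, was divided. Orc6 had a signal of 667 in spermatogonia, 1104 in leptotene/zygotene cells, 159.7 in pachytene cells, 451 in whole testis and 340.1 in the somatic pool. It fell 6.92-fold in pachytene cells against leptotene/zygotene cells (log2 -2.79), and its pachytene signal was the lowest of the 5 groups. This was the largest fall among the 47 genes on the probe sets used, while a dimmer Prim1 probe set gave -3.94. Orc5 had 354 in spermatogonia, 415 in leptotene/zygotene cells, 882 in pachytene cells, 657 in whole testis and 162 in the somatic pool. It rose 2.13-fold in pachytene cells against leptotene/zygotene cells (log2 1.09), where it was brightest, and was under 2-fold with the values as deposited (0.75) and with the log2 of signal plus floor (0.95). The log2 differences of Orc5 and Orc6 were 3.88 apart, with a 95% limit of 0.575 for such a gap. This limit also leaves out differences between probe sets.

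Orc1, the ATPase subunit that is degraded and remade in each cell cycle in human cells, had 180.2 in spermatogonia, 356 in leptotene/zygotene cells, 54.5 in pachytene cells, 120.0 in whole testis and 77.2 in the somatic pool. Its pachytene signal was under the floor, so it fell at least 4.10-fold there against leptotene/zygotene cells. The probe set for Orc1 on the second design gave a smaller difference of -0.69, and with a floor at the 60th percentile the bound was -0.67. Orc4 had 494 in spermatogonia, 631 in leptotene/zygotene cells, 261 in pachytene cells, 494 in whole testis and 198 in the somatic pool. It fell 2.42-fold in pachytene cells against leptotene/zygotene cells. Its 3 other probe sets above the floor were dimmer and gave -0.71, 0.18 and no measurable difference, so the call for Orc4 rests on its brightest probe set, and it was under 2-fold with quantile normalization (-0.78), median scaling (-0.91) and scaling to the shared probe sets (-0.85). Orc3 (0.92) was higher in pachytene cells beyond the 95% limit but not called, and Orc2 (0.03) was within it. Over the alternatives in processing Orc3 ran from 0.31 to 1.34 and Orc2 from -0.31 to 0.45. Orc2 had 236 in spermatogonia, 387 in leptotene/zygotene cells, 395 in pachytene cells, 621 in whole testis and 139 in the somatic pool.

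Among the factors that load the helicase, Cdc6 and Cdt1 fell and their inhibitor did not. Cdc6 had 241 in spermatogonia, 629 in leptotene/zygotene cells, 138 in pachytene cells, 199 in whole testis and 196 in the somatic pool. It had the largest rise in leptotene/zygotene cells against spermatogonia among the replication genes (2.61-fold higher in leptotene/zygotene cells), and fell 4.55-fold in pachytene cells against leptotene/zygotene cells. Cdt1, which brings the MCM ring to origins, had 1189.8 in spermatogonia, 1601 in leptotene/zygotene cells, 262 in pachytene cells, 912 in whole testis and 1179.6 in the somatic pool. It fell 6.11-fold in pachytene cells against leptotene/zygotene cells. Gmnn, which encodes geminin, the protein that binds and blocks Cdt1, had 997 in spermatogonia, 2299 in leptotene/zygotene cells and 3181 in pachytene cells. Gmnn was called higher in leptotene/zygotene cells than in spermatogonia (2.31-fold). Its further difference in pachytene cells was 0.47 on the log2 scale, beyond the 95% limit but under 2-fold. That further difference ran from 0.13 to 0.89 over the alternatives in processing. The gap between Gmnn and Cdt1 was 3.08 log2 units.

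**Figure D3:**
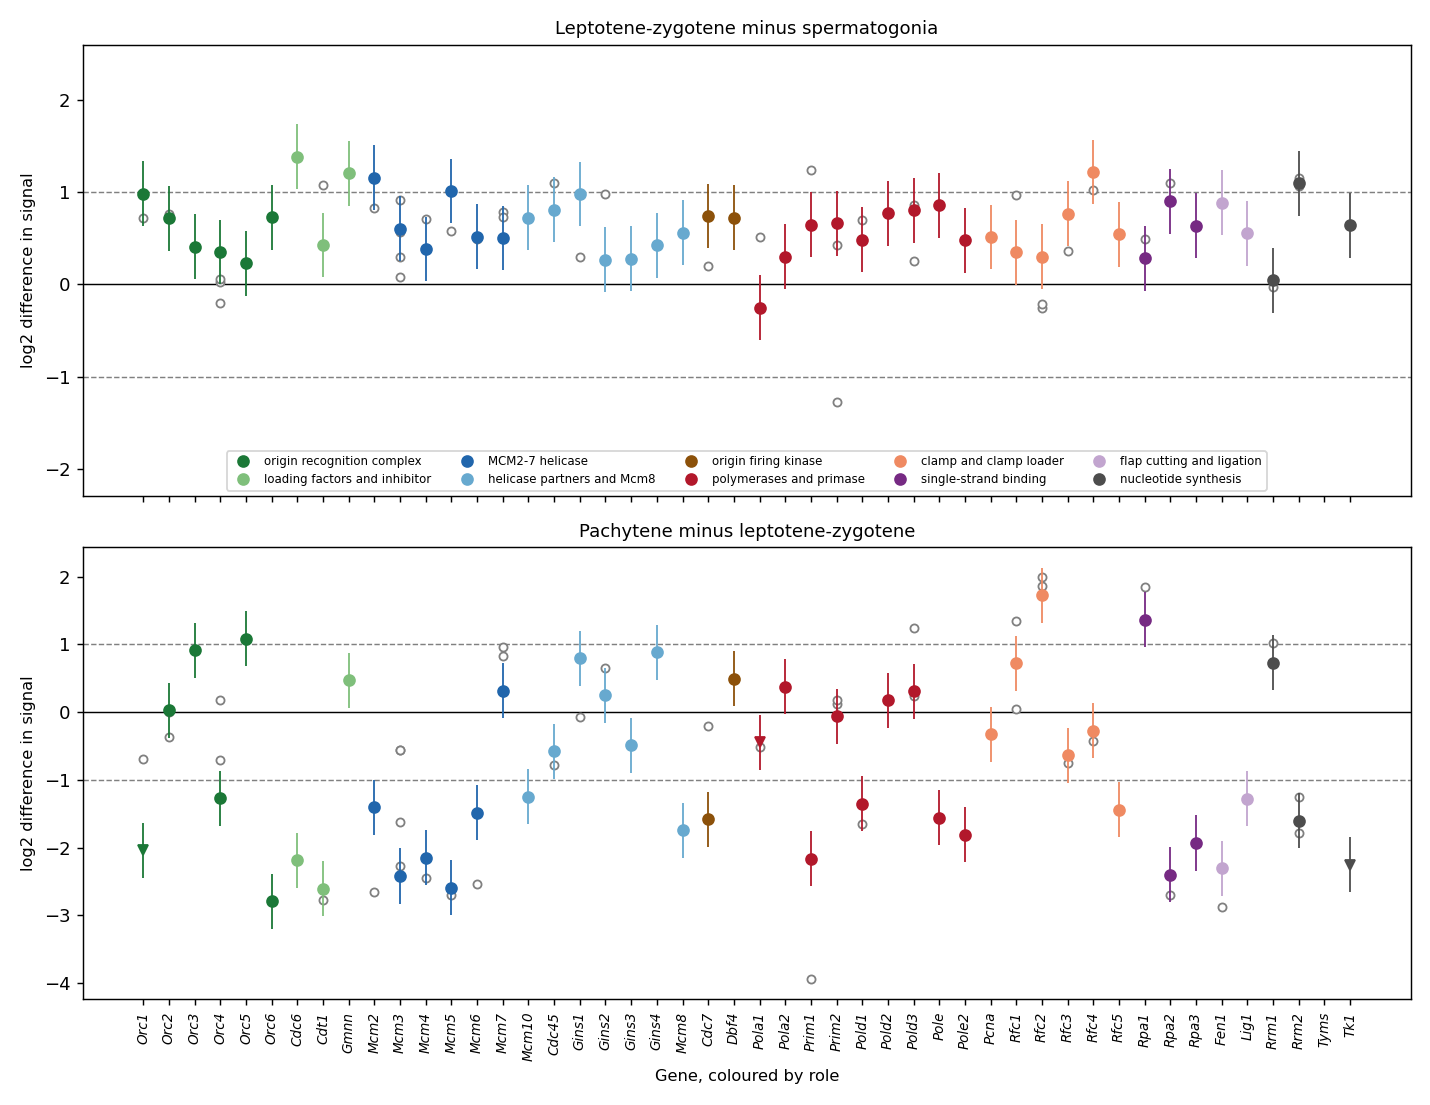
Log2 differences for each replication gene in leptotene/zygotene minus spermatogonia (upper panel) and pachytene minus leptotene/zygotene (lower panel). Filled points are the probe set used, with the 95% limit of the error as bars; triangles are bounds against the floor; open points are the gene's other probe sets; dashed lines mark 2-fold. In the upper panel Pola1 alone lies below 0 among filled points, and in the lower panel 24 filled points lie under the lower dashed line and Orc5, Rfc2 and Rpa1 above the upper one. Tyms had no measurable difference.

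Of the 6 subunits of the MCM2-7 helicase 5 fell in pachytene cells, and Mcm7 did not. Mcm5 had 825 in spermatogonia, 1663 in leptotene/zygotene cells, 275 in pachytene cells, 969 in whole testis and 654 in the somatic pool. It fell 6.04-fold in pachytene cells against leptotene/zygotene cells, after being 2.02-fold higher in leptotene/zygotene cells than in spermatogonia. That rise was under 2-fold with scaling to the shared probe sets (0.96), with the log2 of signal plus floor (0.94) and on the second design alone (0.58). Mcm3 had 1089 in spermatogonia, 1657 in leptotene/zygotene cells, 309.7 in pachytene cells, 1259.9 in whole testis and 612 in the somatic pool. This was a fall of 5.35-fold in pachytene cells against leptotene/zygotene cells. Mcm4 had 918 in spermatogonia, 1198 in leptotene/zygotene cells, 269.5 in pachytene cells, 530.0 in whole testis and 505 in the somatic pool, and fell 4.45-fold in pachytene cells against leptotene/zygotene cells.

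Mcm6 had 943 in spermatogonia, 1352 in leptotene/zygotene cells, 483 in pachytene cells, 1223 in whole testis and 883 in the somatic pool. It fell 2.80-fold in pachytene cells against leptotene/zygotene cells on its brighter probe set, and its second measurable probe set gave a log2 difference of -2.54. Mcm2 had 517 in spermatogonia, 1154 in leptotene/zygotene cells, 436 in pachytene cells, 1111 in whole testis and 1183 in the somatic pool. Its fall in pachytene cells was 2.65-fold, and a second probe set gave a larger log2 difference, -2.65; with scaling to the shared probe sets the difference was -0.98, just under 2-fold. Mcm2 was 2.23-fold higher in leptotene/zygotene cells than in spermatogonia, and 0.99 and 0.82 on the log2 scale with the mean over probe sets and with plain probe sets only, where it was no longer called.

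Mcm7 was measured by 4 probe sets, all on the first design. Its brightest had 3289.7 in spermatogonia, 4657 in leptotene/zygotene cells, 5794 in pachytene cells, 5871 in whole testis and 2339.9 in the somatic pool. Against leptotene/zygotene cells the pachytene signal differed by 0.32 on the log2 scale, within the 95% limit of the error, and the other 3 probe sets gave 0.96, 0.82 and 0.30. With quantile normalization and with the values as deposited this difference was -0.02 and -0.03, and with median scaling and scaling to the shared probe sets it was 0.68 and 0.74, beyond the limit and not called. The gap between Mcm7 and Mcm5 was 2.91 log2 units.

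**Figure D4:**
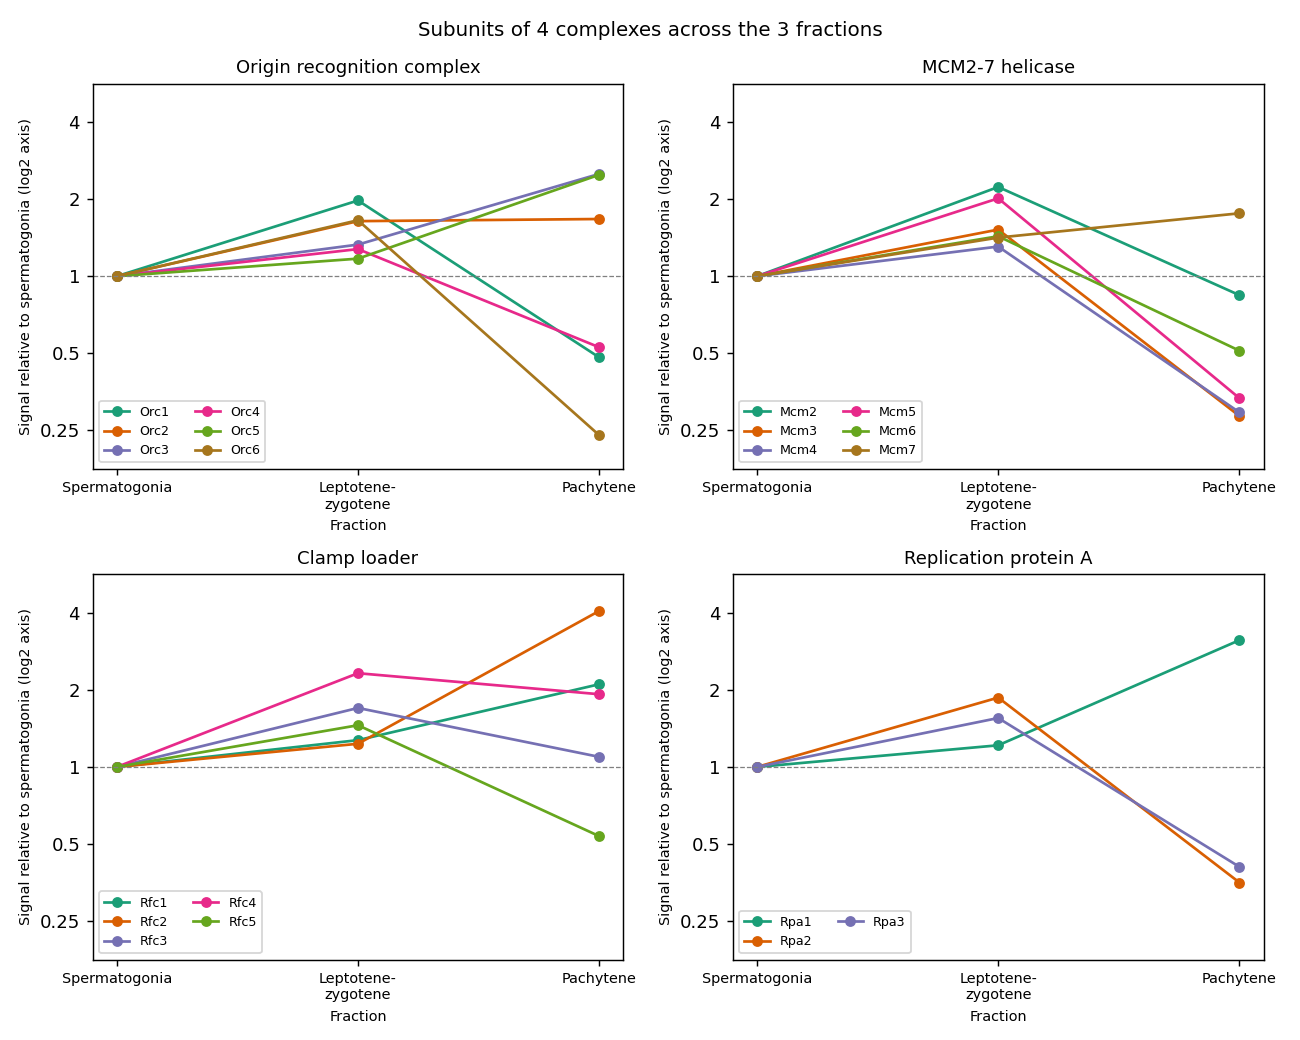
Signal of each subunit of 4 complexes relative to its own level in spermatogonia (vertical axis, log2 scale) in the 3 fractions (horizontal axis), 1 array per point. In each complex the lines separate in pachytene cells, with Orc3 and Orc5, Mcm7, Rfc2 and Rpa1 ending highest and Orc6, Mcm3, Rfc5 and Rpa2 lowest; the pachytene point of Orc1 is at the floor.

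The proteins that complete the helicase were mixed. Mcm10, which helps to start the helicase, fell 2.38-fold in pachytene cells (172) against leptotene/zygotene cells (409), but was under 2-fold with 6 of the alternatives in processing, between -0.63 and -0.94. Gins1 and Gins4, subunits of the GINS complex, had log2 differences of 0.79 and 0.89, higher beyond the 95% limit. Cdc45 (-0.58) and Gins3 (-0.49) were lower beyond it and Gins2 (0.25) was within it. This placing depended on the processing: over the alternatives Cdc45 ran from -0.92 to -0.05, Gins3 from -0.49 to 0.04 and Gins2 from -0.35 to 0.78. The second design gave -0.06 for Gins1. Mcm8, which acts in recombination repair with Mcm9 and is required for fertility in mice, had 131 in spermatogonia, 193 in leptotene/zygotene cells, 57.6 in pachytene cells, 201 in whole testis and 60.6 in the somatic pool. It fell 3.35-fold in pachytene cells against leptotene/zygotene cells, and Mcm9 had a log2 difference of 0.48.

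The kinase that fires origins was split as well. Its catalytic subunit Cdc7 had 663 in spermatogonia, 1108 in leptotene/zygotene cells and 369.6 in pachytene cells, a difference of -1.58 on the log2 scale in pachytene cells against leptotene/zygotene cells. Its activator Dbf4 had 346 in spermatogonia, 572 in leptotene/zygotene cells and 807 in pachytene cells. The log2 difference of 0.50 between the last 2 was beyond the 95% limit and not called. For Dbf4 the alternatives in processing gave 0.16 to 0.92, so its place against the limit was not fixed. A second, dim probe set for Cdc7 gave a bound of -0.20, and with the mean over probe sets Cdc7 was under 2-fold (-0.89).

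Among the enzymes that make DNA, the catalytic subunits of primase, polymerase delta and polymerase epsilon fell and several accessory subunits did not. Prim1, which synthesises the RNA primer, had 1234 in spermatogonia, 1931 in leptotene/zygotene cells, 431 in pachytene cells, 968 in whole testis and 812 in the somatic pool. It fell 4.48-fold in pachytene cells against leptotene/zygotene cells. A dimmer Prim1 probe set gave a larger log2 difference, -3.94, with 1465 in leptotene/zygotene cells and 95.7 in pachytene cells. Prim2, the large primase subunit, had 342 in spermatogonia, 542 in leptotene/zygotene cells, 520.0 in pachytene cells, 537 in whole testis and 128 in the somatic pool. Its difference between pachytene and leptotene/zygotene cells was -0.06, within the 95% limit. In leptotene/zygotene cells against spermatogonia a dim Prim2 probe set on the second design went the other way, with -1.27 against 0.66 for the brightest.

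Pold1 and Pole, the catalytic subunits of polymerases delta and epsilon, fell 2.55-fold and 2.95-fold in pachytene cells against leptotene/zygotene cells, and Pole2 fell 3.50-fold. Pold1 was just under 2-fold with median scaling (-0.98) and with scaling to the shared probe sets (-0.93). Pold2 (0.18), Pold3 (0.31) and Pola2 (0.38) were within the 95% limit, but over the alternatives in processing they reached 0.60, 0.78 and 0.80, beyond it. For Pold3 the other probe sets gave 1.25, past 2-fold, and 0.24. Pola1, the catalytic subunit of polymerase alpha and the only X-linked gene of the 48, had 141 in spermatogonia, 118 in leptotene/zygotene cells, 33.8 in pachytene cells, 109 in whole testis and 106 in the somatic pool. Its pachytene signal was under the floor, and because its highest signal was near the floor, the bound on its difference against leptotene/zygotene cells was only -0.44. Pola1 was also the only gene with a negative difference between leptotene/zygotene cells and spermatogonia (-0.25, within the 95% limit), and its second-design probe set gave 0.52.

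The sliding clamp and its loader diverged. Pcna, which encodes the clamp that tethers polymerases to DNA, was bright in every group, with 4623 in spermatogonia, 6599 in leptotene/zygotene cells, 5252 in pachytene cells, 5789 in whole testis and 5550.2 in the somatic pool. Its difference in pachytene cells was -0.33, within the 95% limit, but it depended on the scaling, with 0.04 and 0.09 under median scaling and scaling to the shared probe sets, and -0.66 and -0.67, beyond the limit, with quantile normalization and the values as deposited. Rfc2, a small subunit of the clamp loader, had 738 in spermatogonia, 909.9 in leptotene/zygotene cells, 3006 in pachytene cells, 1302 in whole testis and 631 in the somatic pool. It rose 3.30-fold in pachytene cells against leptotene/zygotene cells, the largest rise of the 47 genes on the probe sets used. Rfc4 had 681 in spermatogonia, 1583 in leptotene/zygotene cells, 1309.9 in pachytene cells, 1377 in whole testis and 260.1 in the somatic pool. It was 2.32-fold higher in leptotene/zygotene cells than in spermatogonia, and its pachytene difference (-0.27) was within the 95% limit. Rfc5 fell 2.71-fold in pachytene cells against leptotene/zygotene cells, and was under 2-fold with quantile normalization (-0.89). Rfc1, the large subunit, was higher beyond the 95% limit (0.73) and Rfc3 lower (-0.63), neither of them called. The alternatives in processing gave 0.39 to 1.15 for Rfc1, -0.98 to -0.21 for Rfc3 and -0.61 to 0.15 for Rfc4. Dimmer Rfc1 probe sets gave 1.35, past 2-fold, and a bound of 0.05. Rfc2 and Rfc5 were 3.16 log2 units apart.

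On the probe sets used, the heterotrimer that coats single-stranded DNA, replication protein A, showed the widest separation after Orc5 and Orc6. Rpa1, the large DNA-binding subunit, had 3512 in spermatogonia, 4269 in leptotene/zygotene cells, 10993 in pachytene cells, 6427 in whole testis and 2488 in the somatic pool. It rose 2.58-fold in pachytene cells against leptotene/zygotene cells, and its second probe set gave a log2 difference of 1.86. Rpa2 had 719 in spermatogonia, 1342 in leptotene/zygotene cells, 254 in pachytene cells, 752 in whole testis and 399 in the somatic pool. It fell 5.28-fold in pachytene cells against leptotene/zygotene cells, and Rpa3, the smallest subunit, fell 3.82-fold. The gap between Rpa1 and Rpa2 was 3.77 log2 units, with a 95% limit of 0.575.

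Fen1, the nuclease that removes primer flaps, and Lig1, the ligase that joins Okazaki fragments, both fell. Fen1 had 586 in spermatogonia, 1082 in leptotene/zygotene cells, 219 in pachytene cells, 1318 in whole testis and 644 in the somatic pool. The fall in pachytene cells was 4.93-fold against leptotene/zygotene cells. Lig1 fell 2.43-fold in pachytene cells, and was just under 2-fold with median scaling (-0.91) and with scaling to the shared probe sets (-0.86).

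Among the enzymes of nucleotide supply, Rrm1 and Rrm2, the large and small subunits of ribonucleotide reductase, differed. Rrm2 had 749.8 in spermatogonia, 1603 in leptotene/zygotene cells and 527 in pachytene cells, 2.14-fold higher in leptotene/zygotene cells than in spermatogonia and 3.04-fold lower in pachytene cells than in leptotene/zygotene cells. Rrm1 had 1092 in spermatogonia, 1126 in leptotene/zygotene cells, 1869 in pachytene cells, 1923 in whole testis and 489 in the somatic pool. Its difference in leptotene/zygotene cells against spermatogonia was 0.04, within the 95% limit. In pachytene cells against leptotene/zygotene cells it was 0.73, beyond the 95% limit but not called. Of these 2 differences the latter ran from 0.39 to 1.15 over the alternatives in processing. A dimmer Rrm1 probe set gave 1.03 in the latter comparison, past 2-fold. Tk1, the thymidine kinase of dividing cells, had 265 in spermatogonia, 413 in leptotene/zygotene cells, 47.8 in pachytene cells, 109.8 in whole testis and 667 in the somatic pool. Its pachytene signal was under the floor, a fall of at least 4.76-fold against leptotene/zygotene cells. With a floor at the 60th percentile the bound for Tk1 was -0.89, under 2-fold. Tyms, thymidylate synthase, was measurable only in the somatic pool (46.6) on probe sets that name 1 gene. A brighter Tyms probe set also names the pseudogene Tyms-ps and was not used.

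Of the 47 genes above the floor in at least 1 fraction, 30 were brightest in leptotene/zygotene cells, 16 in pachytene cells and 1 (Pola1) in spermatogonia. Over the scalings, the number with a higher signal in pachytene than in leptotene/zygotene cells ran from 13 to 20. In pachytene cells against spermatogonia, 10 of 47 genes were called higher and 13 lower, whereas 19.9% of all genes were called higher and 29.6% lower. This balance turned with the scaling, to 13 higher and 8 lower replication genes after quantile normalization, 17 and 10 when medians were equalised, and 17 and 9 when the probe sets on both designs set the scale. In the same order, 21.9%, 25.1% and 26.1% of all genes were called higher and 23.8%, 23.0% and 21.6% lower. Equalised medians put 52.2% of all called genes higher, and the scale from the probe sets on both designs 54.7%, against 40.2% here. Rfc2 (2.03), Gins1 (1.77), Gmnn (1.67) and Rpa1 (1.65) had the largest positive log2 differences, and Cdt1 (-2.18) and Orc6 (-2.06) the largest negative ones. This comparison shares the pachytene samples with the one above.

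For 9 of the 48 genes both designs held a measurable probe set. This allowed a test across the 2 samples of a group, with limma over 2610 such genes and the design as a block. Whether the 2 samples were prepared separately is not stated. If they were not, the p-values below hold only differences between arrays and probe sets, not between preparations. In pachytene against leptotene/zygotene cells, 2.61% of these genes were called higher and 6.67% lower at a Benjamini-Hochberg adjusted p under 0.05. Of the 9, 2 were called. Mcm5 fell by 2.65 on the log2 scale (SE 0.344, adjusted p = 0.0139), with -2.59 on the first design and -2.70 on the second. Rfc2 rose by 1.86 (SE 0.350, adjusted p = 0.0239), with 1.72 and 1.99. In pachytene cells against spermatogonia, where limma called 3.45% of genes higher and 9.89% lower, the same 2 were called, Mcm5 at -1.85 (adjusted p = 0.0147) and Rfc2 at 1.90 (adjusted p = 0.0144). Mcm5 was no longer called there by limma with the mean over probe sets (adjusted p = 0.0610), nor were Mcm5 and Rfc2 with no filter on dim probe sets (adjusted p = 0.0523 and 0.0502). Without the block no gene of the 2610 was called in either comparison, with 160 and 198 at an unadjusted p under 0.05. Of the other 7, Orc1 (-1.36, adjusted p = 0.220), Cdc45 (-0.68, adjusted p = 0.304) and Orc4 (-0.64, adjusted p = 0.406) had the largest mean differences in limma. The Orc4 mean joins -1.27 on the first design with 0 on the second, where both signals were set to the floor. Prim2, Pola1, Gins1 and Pold3 had means between -0.48 and 0.36. Between leptotene/zygotene cells and spermatogonia limma called none of the 2610 genes, with 70 at an unadjusted p under 0.05.

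Probe sets that measure 1 gene were compared further. In pachytene against leptotene/zygotene cells, 28 of the genes had at least 2 probe sets with a measurable difference, all in 1 direction for 24 of them, and opposite by more than 1 log2 unit only for Orc4. In leptotene/zygotene cells against spermatogonia 23 of 28 had 1 direction.

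Replication genes are known targets of the E2F transcription factors, so the stretch in front of their transcription starts was read from RefSeq promoters (GRCm38.p6) for the 40 genes with an entry. In 300-base windows, 250 before and 50 after the start, 29 of 49 entries of these genes (59.2%) held at least 1 of the 7-letter words TTCCCGC or TTCGCGC or TTGCCGC or TTGGCGC on either strand, against 9.57% of 32851 entries of all genes and 15.7% of 13946 entries of genes measured in pachytene against leptotene/zygotene cells. The CCAAT word was in 53.1% of the replication entries and 37.4% of all. Matches that overlap were each counted, and a match is a description of letters, not a bound site. The 150 bases before the start are shown for 4 genes that fell in pachytene cells (Mcm6, Orc1, Rpa2, Prim1), for Rrm1, which was not called, and for Orc5 and Rpa1, which rose; they were chosen after their values were seen, capitals mark the E2F words, and each sequence runs 5′ to 3′ along the gene.
Mcm6, chr1:128359706-128359855 (- strand): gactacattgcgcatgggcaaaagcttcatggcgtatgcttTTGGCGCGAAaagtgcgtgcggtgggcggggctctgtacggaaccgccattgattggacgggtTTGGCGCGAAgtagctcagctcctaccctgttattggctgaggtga
Orc1, chr4:108579304-108579453 (+ strand): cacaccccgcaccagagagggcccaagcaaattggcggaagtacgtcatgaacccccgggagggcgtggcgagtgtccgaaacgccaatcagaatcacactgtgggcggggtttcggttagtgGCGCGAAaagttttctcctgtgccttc
Rpa2, chr4:132768210-132768359 (+ strand): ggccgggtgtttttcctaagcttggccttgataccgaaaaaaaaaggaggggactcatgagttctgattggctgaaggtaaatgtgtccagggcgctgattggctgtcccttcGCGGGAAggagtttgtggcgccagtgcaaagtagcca
Prim1, chr10:128015065-128015214 (+ strand): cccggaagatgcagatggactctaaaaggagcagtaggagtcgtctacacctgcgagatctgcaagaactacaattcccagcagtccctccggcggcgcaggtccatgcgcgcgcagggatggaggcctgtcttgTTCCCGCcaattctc
Rrm1, chr7:102441545-102441694 (+ strand): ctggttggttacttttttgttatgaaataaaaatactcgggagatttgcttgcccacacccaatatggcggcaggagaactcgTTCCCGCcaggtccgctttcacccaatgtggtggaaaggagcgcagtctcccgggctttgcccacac
Orc5, chr5:22550339-22550488 (- strand): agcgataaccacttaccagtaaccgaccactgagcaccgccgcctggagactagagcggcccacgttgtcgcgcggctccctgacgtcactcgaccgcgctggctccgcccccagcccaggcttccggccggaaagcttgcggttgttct
Rpa1, chr11:75348384-75348533 (- strand): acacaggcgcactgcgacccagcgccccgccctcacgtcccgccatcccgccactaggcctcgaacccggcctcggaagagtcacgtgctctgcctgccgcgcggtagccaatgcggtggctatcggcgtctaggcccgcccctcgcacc
In the Mcm6 stretch 2 capital runs each join a pair of overlapping words, 4 matches in all, and the runs start 109 and 46 bases before the start site. Orc1, Rpa2, Prim1 and Rrm1 have 1 match each, at 27, 37, 15 and 67 bases. Orc5 and Rpa1 have none in the window. Over all genes with an entry, 17 of 22 that fell in pachytene cells had a match, 9 of 15 that were within 2-fold, and 0 of 2 that rose. With so few genes these are given as counts only. Rrm1 and Mcm7 had a match and did not fall, while Orc6, Mcm2, Mcm10, Rfc5 and Tk1 fell with no match in the window.

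Whole testis was set against the somatic pool. Of the 48 genes, 22 were called higher in whole testis and 1 lower, whereas 19.2% of all 14992 measured genes were called higher and 18.4% lower. The median log2 difference was 0.82 over the replication genes and -0.07 over all genes, with an error of 0.291 and a 95% limit of 0.571. The whole-testis arrays are those with the high 3' to 5' ratios, and they held liver transcripts (Alb 3891 and Apoa1 9313 in whole testis, against 94.5 and 35.5 in spermatogonia and 17383 and 19578 in the somatic pool). The part of either in these differences was not tested.

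In this comparison 7 genes were at least 4-fold higher in whole testis, against 7.22% of all genes. The count was from 5 to 9 over the scalings and 3 with the mean over probe sets and with the log2 of signal plus floor. It was 4 with plain probe sets and 1 with a floor at the 60th percentile. The 4-fold share of all genes under these alternatives is not given. Cdc7 had 881 in whole testis and 96.5 in the somatic pool, 9.13-fold higher. Pole, with 891 in whole testis and 129 in the somatic pool, was 6.91-fold higher. Rfc4 (5.30-fold), Dbf4 (4.91-fold), Orc2 (4.47-fold), Prim2 (4.18-fold) and Orc5 (4.05-fold) followed. Both subunits of the Cdc7-Dbf4 kinase were thus among them. For Orc2 the 2 other probe sets gave 1.17 and -0.08 on the log2 scale, so its 4-fold call rests on 1 probe set. Tk1 was the 1 gene called lower, 6.08-fold, with 109.8 in whole testis and 667 in the somatic pool. Pcna (0.06), Mcm2 (-0.09), Mcm4 (0.07) and Cdc6 (0.03) differed by less than the error. For Orc1 and Pola1 the second design gave -1.19 and -1.01, opposite in sign to the first design for Orc1 (0.47) and against 0.04 for Pola1. Limma called 0 of the 9 genes tested on both designs here, and 0.843% higher and 0.958% lower among all 2610.

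**Figure D5:**
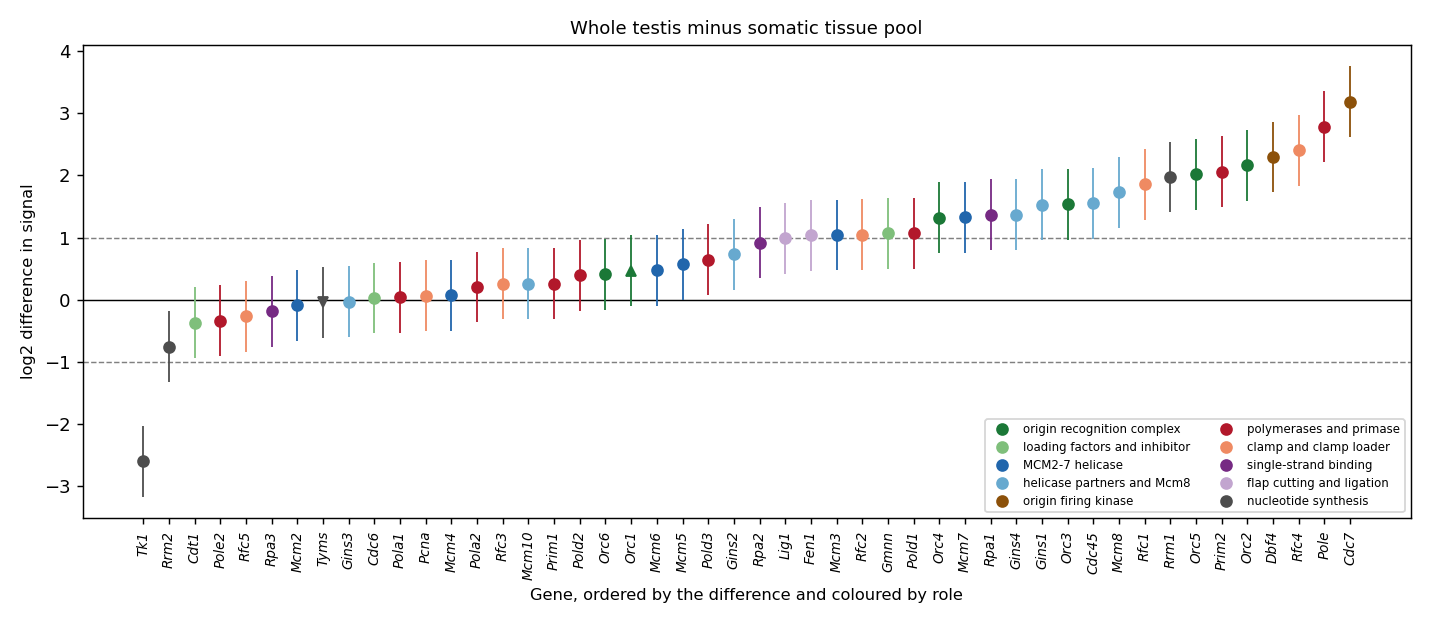
Log2 difference of whole testis minus the somatic pool (vertical axis) for the 48 replication genes, ordered by size and coloured by role, with the 95% limit of the error as bars and triangles for bounds. Cdc7 and Pole are highest, 22 points lie at or above the upper dashed 2-fold line, and Tk1 alone lies under the lower one.

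In spermatogonia against the somatic pool 13 genes were called higher and 3 lower, whereas 17.3% of all genes were called higher and 17.4% lower. Cdc7 (2.78) and Pole (2.51) again had the largest log2 differences, and Tk1 (-1.33), Mcm2 (-1.19) and Rrm2 (-1.04) were lower. A dimmer Mcm2 probe set gave 0.49, opposite in sign, so the call for Mcm2 rests on its brightest probe set. In pachytene cells against whole testis, which holds pachytene cells as well, 1 gene was called higher (Rfc2, 1.21) and 11 lower, whereas 12.7% of all genes were called higher and 20.5% lower. Fen1 (-2.59) and Mcm3 (-2.02) fell at least 4-fold there, as did 4.39% of all genes. The counts were 5 higher and 7 lower with median scaling and 1 and 19 with the values as deposited. Of all genes 20.9% were higher and 13.3% lower with median scaling, and 15.5% and 21.5% with the values as deposited.

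A further 49 replication genes, among them checkpoint, chromatin assembly and E2F genes, were read the same way, and 46 were measured. In leptotene/zygotene cells against spermatogonia 8 of them were higher and 0 lower (median 0.61), whereas 3.41% of all genes were higher and 4.79% lower. Timeless (1.48) and E2f2 (1.28) had the largest differences. In pachytene against leptotene/zygotene cells 4 rose and 19 fell (median -0.77), whereas 18.0% of all genes rose and 27.7% fell. Tipin, which pairs with Timeless at the fork, had 1814 in spermatogonia, 3097 in leptotene/zygotene cells and 269 in pachytene cells, the largest fall (-3.52). Atad5, which unloads the clamp, followed (-2.89, a bound). Rnaseh2a, the catalytic subunit of the enzyme that removes ribonucleotides from DNA, had 594 in spermatogonia, 698 in leptotene/zygotene cells and 4035 in pachytene cells, the largest rise (2.53), ahead of Donson (1.98). In whole testis against the somatic pool 16 were higher and 2 lower of 45 measured, whereas 19.2% of all genes were higher and 18.4% lower.

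Genes of proliferation that are not part of the replication machinery were also mixed in pachytene against leptotene/zygotene cells. Ccna2 (-2.12) and Mki67 (-1.73) fell, Birc5 (1.35) and Plk1 (1.25) rose, and Cdk1 (0.53) and Top2a (-0.27) were not called. Meiob, a germ-cell relative of Rpa1, was higher in leptotene/zygotene cells than in spermatogonia (2.27) and not called in pachytene against leptotene/zygotene cells (-0.53).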

How the data were processed

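The data are intensities, 1 per probe set, as deposited by the authors on a linear scale; GCOS 1 is named per the submitters' processing notes, and nothing used here states the background correction, scaling target or detection calls. Trimmed means of the deposited intensities lay between 383 and 484 (first design) and between 63.4 and 148 (second). Arrays of a design were brought here to a common 2% trimmed mean. For the first design, the 90th percentile of 72 probe sets for olfactory, taste and vomeronasal receptors set the floor; with 15 such sets, under a minimum of 20, the second design took its median signal instead. Probe sets naming 1 gene were kept (20380 and 14661), symbols were updated through Entrez IDs to the GRCm38.p6 table, and the gene was read from its brightest probe set, preferring the first design. The 48 genes have 105 such probe sets, 90 of them above the floor.

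With 1 array per group and design, differences of single genes have no test; the number of arrays limits the precision. For the error, the gaps between designs over 100 common probe sets were squared, averaged and rooted, then scaled down for a pair of measurements; 1.96 errors make the 95% limit. Genes on both designs were tested with limma 3.58.1 (R 4.3.3), with the replicate number as a block, since that number is the array design. Deviations of same-numbered arrays from the group means correlated by 0.679 to 0.958 over 10 pairs. Same-numbered arrays share their probe sets, so a correlation was bound to arise, and it does not show how samples were paired. Scripts used Python 3.11.15, numpy 2.4.6, pandas 2.3.3 and matplotlib 3.10.9. The test was run on simulated data in which a gene changed alike on both designs. That run does not cover probe sets of 1 gene that respond differently. All 48 genes are accounted for; 5 signals were given for genes past 4-fold between fractions, for the 2 extremes in each direction of the main comparisons, for the MCM genes, Pcna and Pola1, and where probe sets disagreed. Genes and lists were chosen with earlier results of these data known. Alternatives covered scaling, floor, pseudocount, probe set choice, each design alone and a 4-fold threshold.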

Additional observations from a re-analysis of the deposited data

How the results depend on the processing

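Each gene was measured once per group and most were read from 1 probe set, so the precision rests on the shared probe sets. In pachytene against leptotene/zygotene cells the 27 called replication genes kept their direction in all 295 values computed under alternatives, and 17 stayed past 2-fold in each. In leptotene/zygotene cells against spermatogonia the 6 kept theirs in all 66, and 4 stayed past 2-fold. These genes were picked at 2-fold on the same arrays that nearly all alternatives reuse. The kept direction was therefore largely set beforehand and is no separate support. The causes of the changes below were not tested beyond what each alternative does.

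At a 4-fold threshold, 0 genes were higher in leptotene/zygotene cells than in spermatogonia, against 40 of all 12919. In pachytene against leptotene/zygotene cells 0 rose and 11 fell, against 1176 and 1262 of all 13523. In whole testis 7 were higher than in the somatic pool, against 1082 of all 14992. Under the other scalings the 11 was 3 to 13 and the 7 was 5 to 9, with no 4-fold share of all genes given. With the values as deposited, 11 genes were higher in leptotene/zygotene cells, against 4.92% of all genes, and the whole-testis median was 1.14. That median was 0.47 with plain probe sets only. With median scaling and with scaling to the shared probe sets 8 genes rose in pachytene against leptotene/zygotene cells, Gins1, Gins4, Orc3, Rfc1 and Rrm1 joining the 3. The median in this comparison was -0.67 with quantile normalization, -0.88 with median scaling, -0.83 with the shared probe sets, -0.77 with a floor at the 60th percentile, -0.94 with the log2 of signal plus floor, -0.63 with the mean over probe sets and -0.58 with plain probe sets. It lay 1.03 below the median of all genes, and 0.66, 0.54, 0.46 and 0.35 below it with quantile normalization, the 60th percentile floor, the mean over probe sets and plain probe sets. The median of all genes moved by up to 0.36 between scalings in pachytene against leptotene/zygotene cells and by up to 0.22 in whole testis against the somatic pool, where of all called genes 51.0% were higher in whole testis, against 61.01% with median scaling and 62.9% with the values as deposited.

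With 1 design left out, the counts ran from 1 to 6 higher in leptotene/zygotene cells, from 1 to 3 higher and from 2 to 23 lower in pachytene against leptotene/zygotene cells, and from 1 to 21 higher in whole testis; the medians ran from 0.29 to 0.64, from -1.26 to -0.49 and from 0.26 to 0.95. The low ends of the counts, and the medians of 0.29, -0.49 and 0.26, are those of the second design alone. There 12, 11 and 10 of the genes were measured. On that design 1 gene was higher and 1 lower in leptotene/zygotene cells, against 3.69% and 4.98% of all genes. In pachytene against leptotene/zygotene cells 1 of 11 rose and 2 fell there, against 16.1% and 25.4% of all genes. In whole testis 1 was higher and 2 lower there, against 15.7% and 16.3% of all genes. On the first design alone 16.8% of all genes rose and 29.7% fell in pachytene against leptotene/zygotene cells. Of all genes on it, 2.84% were higher in leptotene/zygotene cells than in spermatogonia and 19.5% in whole testis than in the somatic pool.

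Limma called 242 genes in pachytene against leptotene/zygotene cells with the replicate block, 0 with no replicate block, 122 with quantile normalization, 175 with the mean over probe sets and 3 with no filter on dim probe sets. For whole testis against the somatic pool it called 47 genes, 0 with no replicate block and 16 with no filter. The adjusted p of Mcm5 ranged from 0.0139 to 0.582 and that of Rfc2 from 0.0196 to 1 over these settings, the highest with no replicate block; with no filter they were 0.0549 and 0.0777.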
